A study of Mus musculus with 22 samples.

Results

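The n02 neurons are a small group of hypothalamic neuron nuclei that the study's annotation names after Gm8773 and Tac1. They were taken as all nuclei whose cell type in that annotation begins with n02, which gave 159 of 24965 nuclei, or 0.637% of the nuclei and 2.14% of the 7430 neuron nuclei that the annotation placed in a named type. Nuclei came from the hypothalamus of male ob/ob mice, which lack leptin, become obese and are diabetic, at about 11 weeks of age. Each mouse had received 1 intracerebroventricular (icv) injection of 3 µg FGF1 or of PBS vehicle, and the vehicle mice were pair-fed to the intake of the FGF1 mice. Day 1 held 3 FGF1 and 3 vehicle mice, and Day 5 held 2 and 2. Every sample was the library of 1 mouse, so all values describe leptin-deficient animals of 1 sex, and no lean, freely fed or untreated group was part of the comparison.

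Tac1 encodes the precursor of substance P and neurokinin A, peptides of the tachykinin family that act on neurokinin receptors. GABAergic neurons make the inhibitory transmitter GABA from glutamate with the decarboxylases encoded by Gad1 and Gad2, and load it into vesicles with the transporter encoded by Slc32a1. In the hypothalamus, GABAergic neurons that also release a peptide take part in the control of feeding, energy use and blood glucose, and FGF1 acts through cell surface FGF receptors that signal through the MAP kinase cascade.

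The n02 nuclei held 562210 transcripts counted as unique molecular identifiers (UMIs), with a median of 3002 UMIs and 1744 genes per nucleus. The sum per mouse ran from 13896 UMIs in 3 nuclei (vehicle mouse 38, Day 5) to 100569 UMIs in 32 nuclei (FGF1 mouse 1, Day 1). Levels are given as CPM, the UMIs of a gene per 1000000 UMIs of the n02 nuclei of a mouse, so 1 UMI was worth 9.94 to 72.0 CPM depending on the mouse. CPM is not scaled to gene length, and values are therefore compared within a gene and not between genes. Of the n02 nuclei, 4 had a barcode that also occurred in another library, and 0 barcodes were shared between n02 nuclei.

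The markers in the name were present in these nuclei, Tac1 in every mouse and Gm8773 in some. Tac1 stood at 905, 143 and 242 CPM in FGF1 mice 1, 2 and 3 and at 843, 1211 and 603 CPM in vehicle mice 1, 2 and 3 on Day 1. On Day 5 it stood at 591 and 1035 CPM in FGF1 mice 37 and 45 and at 1030 and 1727 CPM in vehicle mice 28 and 38. In each of the 10 mice this was above the level in the other neuron nuclei of the same mouse, which lay between 54.0 and 231 CPM. The other neurons are all 19257 neuron nuclei outside n02. Most of them were unmapped, that is without a named type, since 7430 neuron nuclei, n02 included, had one. They held the 322 unmapped nuclei whose projected label was n02. Gad2 averaged 508 ± 158 CPM (SD, n = 10 mice) against 161 ± 20.6 CPM in other neurons, and was also higher in every mouse. Gad1 averaged 189 CPM against 65.0 CPM. Slc17a6, which encodes the vesicular glutamate transporter of hypothalamic excitatory neurons, had a UMI in 7 of the 159 nuclei, or 4.4% (95% Wilson interval 2.1 to 8.8%).

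Gm8773, an annotated protein-coding gene model on chromosome 5 (GRCm38, chr5:5573799-5576203), varied among mice by more than its mean (124 ± 156 CPM, SD, n = 10). It reached 398 CPM in FGF1 mouse 1 and 303 CPM in vehicle mouse 2 on Day 1, and 328 CPM in FGF1 mouse 45 on Day 5. In FGF1 mouse 2 and vehicle mouse 1 it was at 47.7 and 17.6 CPM, in FGF1 mouse 37 and vehicle mouse 28 at 90.9 and 51.5 CPM, and 0 UMIs were counted in FGF1 mouse 3 and vehicle mice 3 and 38. Those 3 mice had 7, 6 and 3 n02 nuclei, whereas the 3 highest values came from the 3 mice with most n02 nuclei, 32, 26 and 26.

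**Figure D1:**
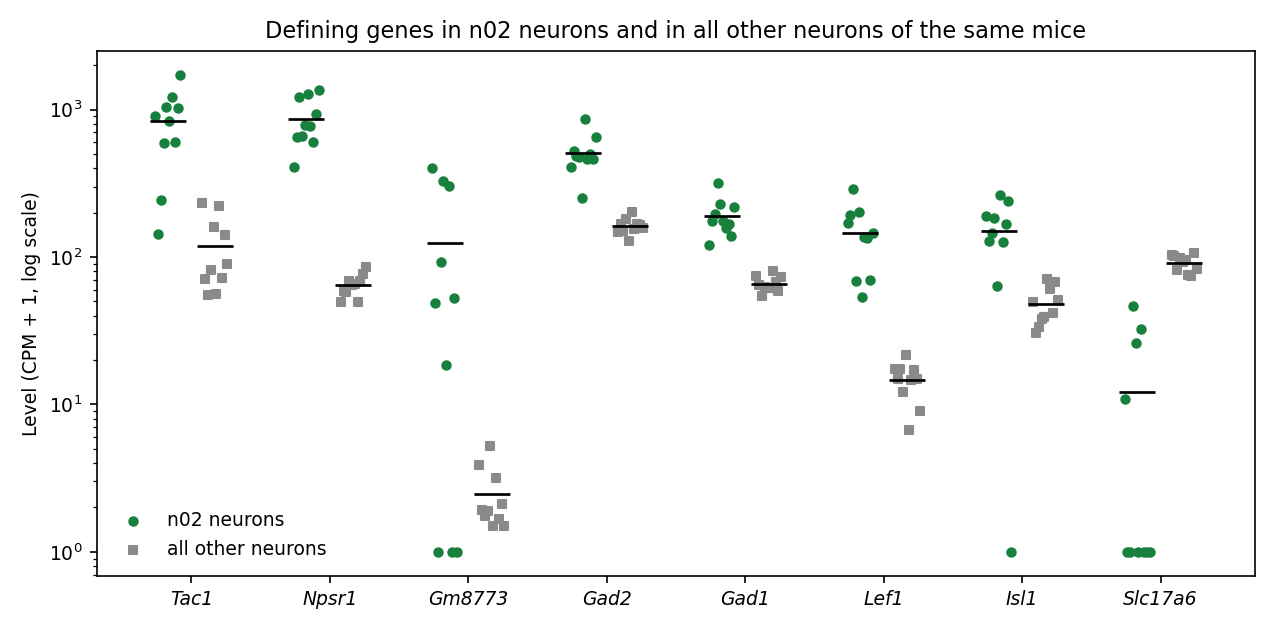
Level of 8 genes on a log axis (CPM + 1) in the n02 neurons (green circles) and in all other neurons of the same mice (grey squares), 1 point per mouse of all groups, with the mean as a black line. Tac1, Npsr1 and Gad2 lie above the other neurons in all 10 mice, while Gm8773 is at 0 CPM in 3 mice and at 398 CPM in another.

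The genes with the largest ratio of n02 to other neurons show what else these nuclei share. The comparison is a description, because the nuclei had been assigned to n02 from their own transcripts. Among the 2375 genes with a UMI in at least 25% of n02 nuclei, the median ratio was 1.04, 40 genes were at least 2 times as high as in other neurons and 14 were lower by that factor or more. Npsr1, the receptor for neuropeptide S, averaged 866 CPM against 63.5 CPM, with a UMI in 73.6% of the nuclei. It stood at 408, 651 and 1210 CPM in the FGF1 mice and 1281, 773 and 603 CPM in the vehicle mice of Day 1, and at 659 and 782 CPM against 927 and 1367 CPM on Day 5. Its lowest value was thus several times the level in other neurons. Npsr1 lies on chromosome 9 (GRCm38, chr9:24097996-24316398) and Tac1 on chromosome 6 (chr6:7554879-7565834), both on the forward strand.

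Transcription factors among the leading genes were Lef1 (146 CPM against 13.6 CPM), Tcf7l2, Dach2 and Isl1 (150 CPM against 47.3 CPM). Lef1 and Tcf7l2 encode DNA-binding partners of beta-catenin in Wnt signalling, and Isl1 encodes a LIM homeodomain factor of several hypothalamic lineages. Genes for surface and secreted proteins were Epha3 (415 CPM against 65.8 CPM), an ephrin receptor, Sema3a, an axon guidance cue, and Sulf1 (249 CPM against 51.5 CPM), which encodes a sulfatase that trims heparan sulfate. Pcsk5 (409 CPM against 69.4 CPM) encodes a proprotein convertase. Sv2b and Syt6 encode vesicle proteins and Gabra4 a GABA-A receptor subunit. The remaining leading genes were Cachd1, Pid1 (629 CPM against 181 CPM), Amotl1 and Tmem47.

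Genes lower in n02 could be ranked only where 25% of its nuclei still had a UMI, so the numbers of higher and lower genes are not comparable and genes rarer in n02 are left out. Within that limit the lowest ratio belonged to Agrp (115 CPM against 364 CPM), the feeding peptide of another GABAergic type. The adhesion gene Cntn5 averaged 631 CPM against 1856 CPM and the non-coding RNA gene Rmst 361 CPM against 850 CPM. Fam19a1, Tmcc3, Cntnap5b, Sgcd, Sox5, Alcam and Nnat made up the rest of the 10 lowest.

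Set against the annotated types with at least 50 nuclei, 29 in all with glia and the unmapped nuclei included, n02 had the highest mean level of Tac1, Npsr1, Gad2 and Gm8773. For Tac1 the next type was Glu6, a glutamatergic type, with 788 ± 458 CPM and a UMI in 81.4% of its nuclei, against 833 ± 467 CPM and 59.7% in n02. These neighbours in the order did not differ beyond their spread over mice, so a high Tac1 level was not particular to n02. For Npsr1 the next type, again Glu6, had 130 CPM, and for Gad2 the next types, GABA1 and n03, had 424 and 363 CPM. Lef1 was higher in endothelial nuclei (477 CPM) and n02 ranked 2 of 29 for it. For Slc17a6 it ranked 27 of 29.

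**Figure D2:**
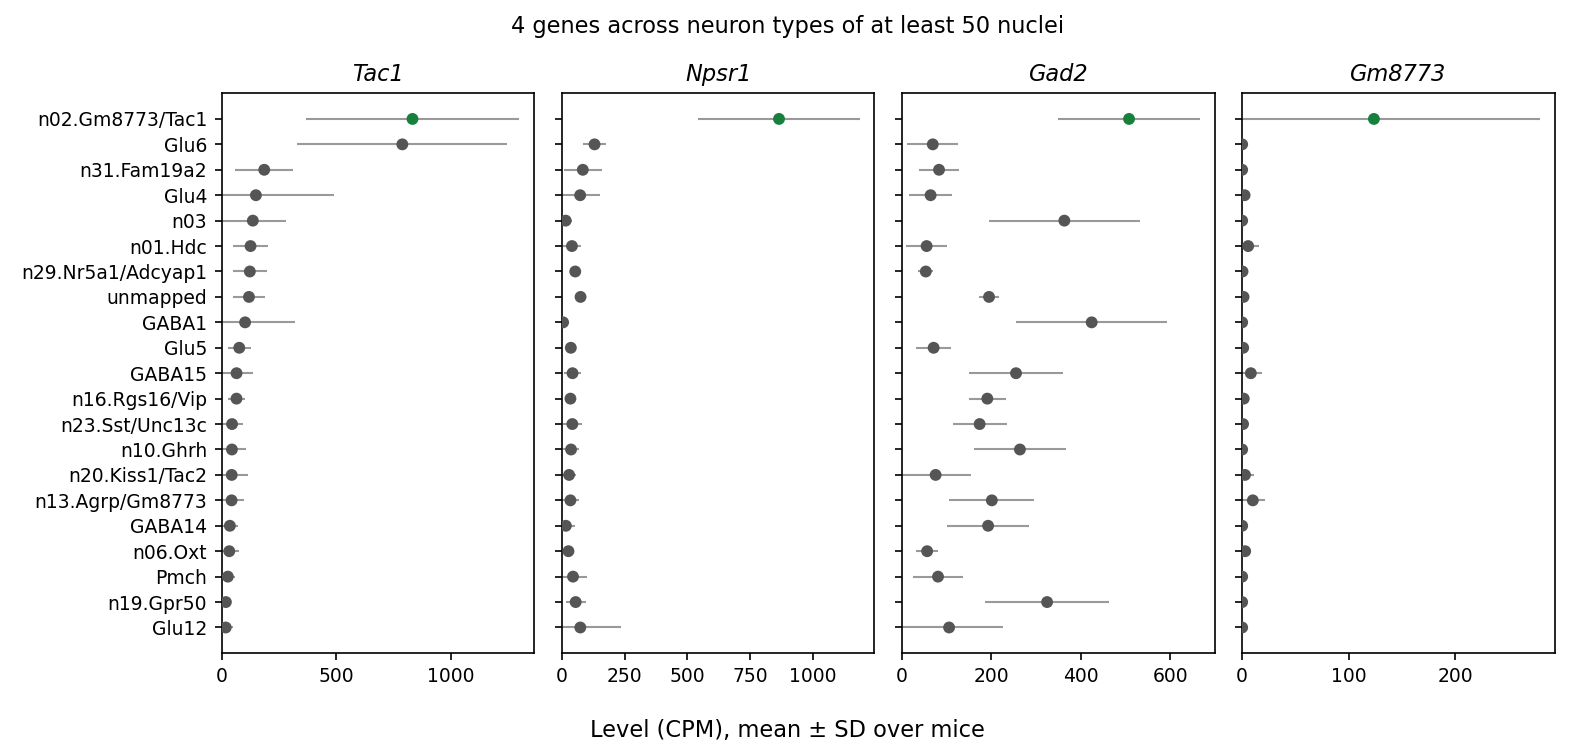
Level of Tac1, Npsr1, Gad2 and Gm8773 (CPM, linear axes) in n02 (green) and in the other neuron types of at least 50 nuclei, as mean over mice with the SD as a bar that stops at 0. n02 and Glu6 overlap for Tac1, while Npsr1 stands at 866 CPM in n02 and at 130 CPM in the next type.

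Nuclei within n02 were not alike in their peptide transcript. Tac1 had no UMI in 64 nuclei, 1 or 2 UMIs in 38, 3 to 9 in 41 and 10 or more in 16, with a highest count of 19. At least 1 of Gad1, Gad2 and Slc32a1 was counted in 135 nuclei, 84.9% (78.5 to 89.6%). The GABA genes were found in 84.2% of the 95 nuclei with a Tac1 UMI and in 85.9% of the 64 without, and Npsr1 in 74.7% and 71.9%. Gm8773 instead was found in 34.7% of the nuclei with Tac1 and in 10.9% of those without, and 33 of the 40 nuclei with Gm8773 had Tac1. The nuclei with Tac1 were the deeper ones, with a median of 3466 UMIs against 2624, and the part of depth in these shares was not tested. These shares pool the nuclei of 10 mice, and the interval treats nuclei as independent. FGF1 mouse 1, vehicle mouse 2 and FGF1 mouse 45 held 14, 7 and 10 of the nuclei with Gm8773. The part of single mice in the shares was not tested. Tac1, Gm8773 or Npsr1 had a UMI in 145 nuclei, 91.2%.

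The members had been assigned by projection onto published hypothalamic data, with n02 kept as the label where the confidence passed 75%. Of 492 nuclei whose projected label was n02, 322 were left unmapped and 11 were given another type. The confidence of the members ran from 0.752 to 0.988 with a median of 0.897, and the highest value outside was 0.747. In the 47 members below 0.85, pooled Npsr1 was 606 CPM, in the 112 members above it was 852 CPM, and in the 108 nuclei from 0.5 to 0.75 that were not members it was 478 CPM. Pooled Tac1 was 979 CPM in the members above 0.85 and 572 CPM in those below, near the 526 CPM of the nuclei from 0.5 to 0.75 and the 545 CPM of the 225 nuclei under 0.5. Slc17a6 was at 2.6 CPM, 40.0 CPM, 33.3 CPM and 68.9 CPM in the same order, and the values of the members rest on 1 and 7 UMIs.

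Transcripts of other cell types were present at a low level. Agrp had a UMI in 26.4% of n02 nuclei at a median of 3002 UMIs, within the range from 11.7% (GABA1) to 37.2% (tanycytes) in the types that are not Agrp neurons, whereas 99.7% of the nuclei of the Agrp type had one. Npy had a UMI in 14.5% of n02 nuclei, against 9.4% to 41.3% in those other types. Whether these UMIs are background or come from the n02 nuclei themselves was not tested. Of the markers of glia and vessels, Aqp4 and Rax (astrocytes and tanycytes), Cspg4, Sox10 and Gpr17 (oligodendrocyte precursors), Tmem119 (microglia) and Cldn5, Rgs5 and Slc47a1 (vessels) had 0 UMIs in all n02 nuclei. The other markers had UMIs. Found in at least 5% of n02 nuclei were 7 of 12 astrocyte and tanycyte, 3 of 8 oligodendrocyte, 1 of 8 precursor, 2 of 8 microglia and 1 of 9 vascular markers. In the same order 1, 2, 4, 3 and 4 of them averaged above other neurons. The summed level of the 12 astrocyte and tanycyte markers was 194 to 238 CPM in the FGF1 mice and 140 to 335 CPM in the vehicle mice of Day 1, and the ranges overlapped, as they did on Day 1 for the markers of oligodendrocytes, their precursors, microglia, vessels and other neuron types and for mitochondrial transcripts. Most pan-neuronal markers were not lower than in other neurons, with 6 of 8 above them.

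Beyond Tac1, few peptides stood above other neurons. Of 38 neuropeptide genes in the table, 13 had a UMI in at least 5% of the nuclei and 5 were higher on average than in other neurons. Penk, the enkephalin precursor, averaged 61 CPM against 26 CPM with a UMI in 17.6% of the nuclei, the highest level of the 29 types, though it was at 0 in FGF1 mouse 3 and vehicle mice 3 and 38. Slc18a2, the vesicular monoamine transporter, averaged 51 CPM against 15 CPM and ranked 3 of 29, after n01 (306 CPM) and n03 (183 CPM). Th, the first enzyme of catecholamine synthesis, had a UMI in 2.5% of the nuclei. Slc32a1 averaged 40 CPM against 25 CPM.

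Of the receptors of hormones and feeding peptides, 28 of 53 were found in at least 5% of the nuclei and 8 were not found. Ghr, the growth hormone receptor, averaged 395 CPM against 333 CPM and Htr2c, a serotonin receptor, 190 CPM against 369 CPM. Lepr, the leptin receptor, averaged 23 CPM against 32 CPM. Npy2r (26 CPM against 6 CPM), Brs3 (28 CPM against 2 CPM) and Galr1 (22 CPM against 10 CPM) were higher than in other neurons at levels worth 1 or a few UMIs per mouse. Of 57 hypothalamic transcription factors 17 were higher on average than in other neurons, among them Zfhx3 (316 CPM against 183 CPM), Zfhx4 (274 CPM against 135 CPM) and Tbx3 (19 CPM against 4 CPM).

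Of the receptors through which FGF1 acts, Fgfr2 stood at 378, 302 and 436 CPM in the FGF1 mice and 369, 439 and 502 CPM in the vehicle mice of Day 1, and at 409 and 341 CPM against 326 and 360 CPM on Day 5. These values overlapped between the groups on both days, and the average of 386 ± 61 CPM compares with 383 CPM in other neurons. In the GENCODE vM21 annotation the Fgfr2 model spans 2960.9 kb with introns and is overlapped by Ctbp2 on its own strand and by 14 genes on the other. Whether the alignment used the same model, and how reads in these overlaps were counted, was not tested. Fgfr1 averaged 35 CPM against 46 CPM, with a UMI in 11.9% of the nuclei. Of 13 FGF receptor and co-receptor genes, 7 had a UMI in at least 5% of the nuclei and 8 averaged above other neurons. Fgfr2 and Fgfr1 thus do not stand for the whole list. The fitted difference of Fgfr2 between FGF1 and vehicle was -0.25 on the log2 scale on Day 1 (95% interval -1.16 to 0.67) and 0.09 on Day 5 (-0.86 to 1.04). Of the FGF genes, Fgf14, which encodes an intracellular partner of sodium channels, was at 3112 CPM against 3522 CPM, and Fgf1 itself at 58 CPM against 43 CPM.

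Genes that MAP kinase signalling induces were sparse in n02, though 8 of 16 feedback genes and 10 of 20 immediate early genes averaged above other neurons. Of 16 feedback genes, 5 had a UMI in at least 5% of the nuclei (Spred1, Spred2, Spred3, Etv4 and Etv5, at 78, 107, 22, 14 and 17 CPM), and 0 passed the filter on low counts on either day. Without that filter edgeR tested 11 of them on Day 1 and 12 on Day 5 and called 0, with 0 below 0.05 unadjusted, as did DESeq2. Of 20 immediate early genes 2 passed 5% of the nuclei, Homer1 and Bdnf, and 0 passed the filter, while 14 and 10 were tested on Day 1 and Day 5 without it and 0 were called. The lowest FDR of any gene in these unfiltered edgeR fits was 0.941 on Day 1 and 0.897 on Day 5. At so few UMIs the 0 calls do not show that these genes failed to respond.

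A difference in the share of n02 nuclei between treatments was not found beyond the spread of mice. On Day 1 n02 made up 0.643, 0.632 and 0.628% of the nuclei of FGF1 mice 1, 2 and 3, and 0.967, 1.15 and 0.555% in vehicle mice 1, 2 and 3. The FGF1 values were close together and inside the wider vehicle range, with means of 0.634 ± 0.00813% and 0.890 ± 0.304% (SD, n = 3) and an exact two-sided permutation p of 0.4, where 3 against 3 mice can reach 0.1 at best. Counting error was wider than the agreement of the FGF1 mice, with Wilson intervals from 0.304 to 1.29% for the 7 nuclei of FGF1 mouse 3. Without vehicle mouse 3 all FGF1 mice lay below the vehicle mice, and the difference was -0.423 percentage points (exact permutation p = 0.1 over 10 regroupings). Without vehicle mouse 2 it was -0.127 percentage points (exact permutation p = 0.7). On Day 5 the share was 0.586 and 0.451% in FGF1 mice 37 and 45 against 0.566 and 0.508% in vehicle mice 28 and 38, and the groups overlapped (difference of means -0.0182 percentage points, exact permutation p = 1, smallest possible 0.333). Taken over mapped neurons, the Day 1 difference was -1.03 percentage points (2.04 ± 0.103% against 3.07 ± 1.29%, exact permutation p = 0.4) and the Day 5 difference changed sign to 0.282 percentage points (exact permutation p = 0.667). Intervals cover counting error only, and a lower share cannot be told apart from fewer nuclei recovered or mapped. Shares of all nuclei also count those that the annotation marks as filtered out.

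**Figure D3:**
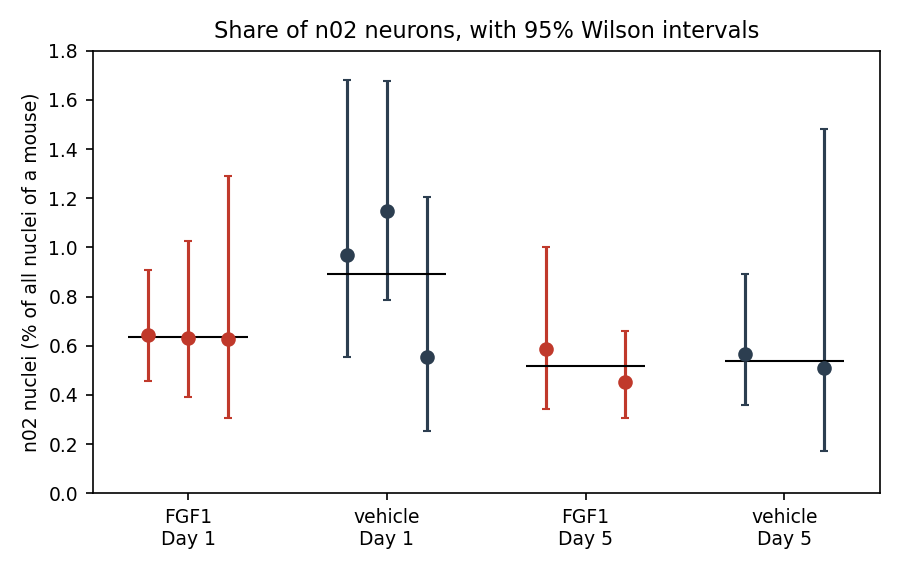
Share of n02 nuclei among all nuclei of a mouse in percent, 1 point per mouse with its 95% Wilson interval (vertical bar) and the mean of each group (black line). The 3 FGF1 mice of Day 1 lie between 0.628 and 0.643%, inside the range of the vehicle mice.

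No gene passed the test for a difference between FGF1 and vehicle in n02 on Day 1. The UMIs were summed per mouse and compared with edgeR's quasi-likelihood test, with the false discovery rate (FDR) of Benjamini and Hochberg. Mice with at least 10 n02 nuclei entered, FGF1 mice 1 and 2 and vehicle mice 1 and 2. Of 1723 genes tested, 0 had an FDR below 0.05 (percent called 0), the lowest FDR was 0.998, and 34 genes (1.97%) had an unadjusted p below 0.05, 17 in each direction. DESeq2, run without the filter on low counts, called 0 of 14369 genes (21 below 0.05 unadjusted). With all 6 mice edgeR called 0 of 1151 genes (39 below 0.05 unadjusted, or 3.39%). The values below are of the 5 genes in each direction with the smallest p, and none of them is a called change. Such a choice favours groups that do not overlap and intervals away from 0.

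Snap25, which encodes a SNARE protein of synaptic vesicle release, stood at 1104, 556 and 678 CPM in FGF1 mice 1, 2 and 3 and at 2370, 2078 and 1138 CPM in vehicle mice 1, 2 and 3. The groups did not overlap, although FGF1 mouse 1 and vehicle mouse 3 nearly met, and the fit over the 4 mice gave -1.39 (95% interval -2.38 to -0.40, edgeR FDR 0.998). Ldb2, which encodes a cofactor of LIM-domain transcription factors, stood at 557, 556 and 387 CPM against 87.8, 230 and 368 CPM. FGF1 mice were the higher, by 1.71 (0.60 to 2.82), and again mouse 3 of each group nearly met.

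Srsf2, a splicing factor gene, stood at 368, 334 and 290 CPM against 52.7, 115 and 301 CPM, so that vehicle mouse 3 lay within the FGF1 range. Ncam2, an adhesion molecule of neurites, stood at 1114, 1255 and 242 CPM against 491, 407 and 536 CPM, and FGF1 mouse 3 was below all vehicle mice. Mt2, a metal-binding metallothionein gene, stood at 656, 318 and 145 CPM against 158, 157 and 134 CPM. FGF1 mice 1 and 2 stood above vehicle mice 1 and 2 for Mt2 in other neurons too, with 668 CPM in FGF1 mouse 1 and 307 CPM in FGF1 mouse 2 against 171 and 199 CPM in vehicle mice 1 and 2. Fitted differences were 1.96 for Srsf2, 1.39 for Ncam2, 1.65 for Mt2 and 2.06 for Cpne8.

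Zranb2, an RNA-binding protein gene, stood at 189, 159 and 194 CPM in the FGF1 mice and at 632, 376 and 301 CPM in the vehicle mice, without overlap. Arid4a, which encodes a chromatin protein, stood at 59.7, 79.4 and 145 CPM against 211, 209 and 167 CPM, also without overlap. The other genes of this direction were Gm32250 (-2.16) and Stxbp5 (-1.72), and in both mouse 3 of a group fell in the range of the other group. In FGF1 mouse 3, with 7 n02 nuclei, 1 UMI is worth 48.4 CPM, and these values rest on few UMIs.

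Day 5 also gave 0 called genes. All 4 mice entered, since the minimum of 10 nuclei, and then that of 5, would have left 1 vehicle mouse, and vehicle mouse 38 contributed 3 nuclei. Of 975 genes tested 0 had an FDR below 0.05 (percent called 0), the lowest FDR was 0.474, and 58 genes (5.95%) had an unadjusted p below 0.05, 26 higher and 32 lower with FGF1. DESeq2, without the filter on low counts, called 0 of 13160 genes (5 below 0.05 unadjusted). On Day 5 the marker sums overlapped between the 2 FGF1 and the 2 vehicle mice for astrocytes and tanycytes, oligodendrocyte precursors, microglia, other neuron types and pan-neuronal genes. They did not overlap for 8 oligodendrocyte markers (136 to 328 CPM against 0 to 68.7 CPM) or 9 vascular markers (0 to 37.8 CPM against 51.5 to 72.0 CPM). Nor did they for 13 mitochondrial transcripts (114 to 159 CPM against 216 to 343 CPM). Even with complete separation, an exact permutation of 2 against 2 mice cannot go below 0.333. In vehicle mouse 38 a single UMI is worth 72.0 CPM, and the part of these sums in the gene differences was not tested.

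**Figure D4:**
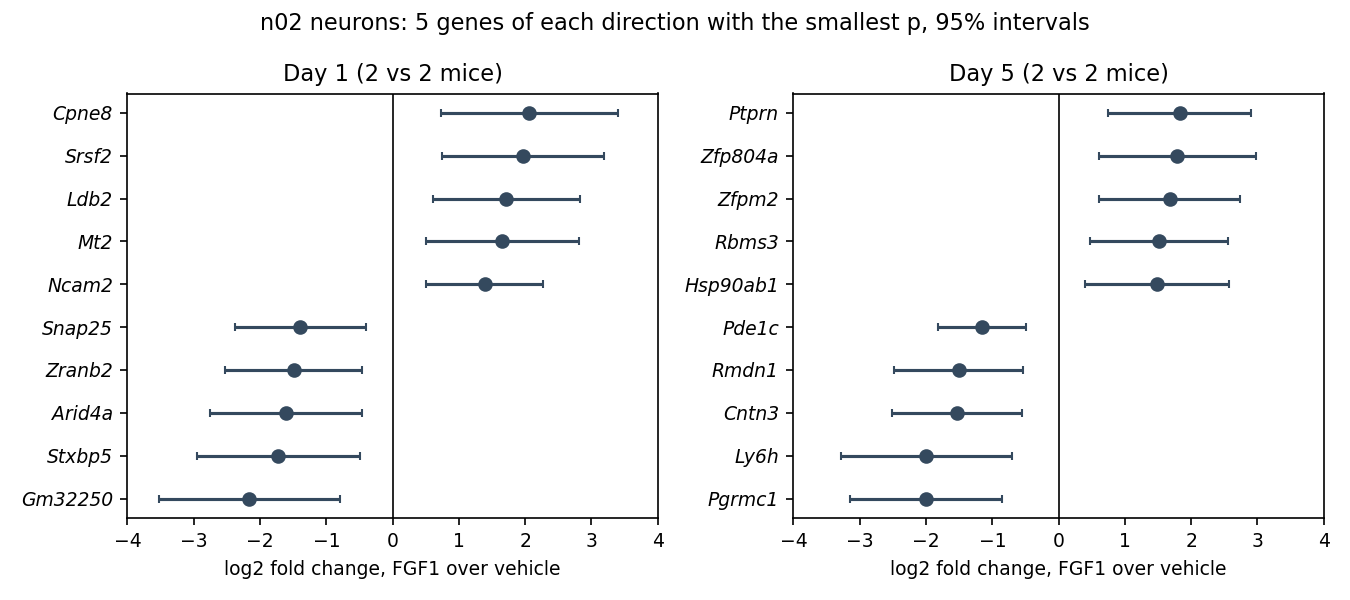
Log2 fold change of FGF1 over vehicle in n02 (points) with its 95% interval (bars) for the 5 genes of each direction with the smallest unadjusted p on Day 1 and on Day 5, 2 against 2 mice each. The intervals are wide, as for Cpne8 from 0.73 to 3.40, and no gene has an FDR below 0.05.

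Pgrmc1, which encodes a haem-binding membrane protein, stood at 159 and 50.5 CPM in FGF1 mice 37 and 45 and at 361 and 360 CPM in vehicle mice 28 and 38. Ptprn, a protein of dense-core secretory granules, stood at 455 and 479 CPM against 120 and 144 CPM. The groups overlapped for neither gene, and the fitted differences had 95% intervals of -3.15 to -0.86 for Pgrmc1 and 0.75 to 2.90 for Ptprn (edgeR FDR 0.474 for both). Both were picked for their small p on Day 5, a choice that favours separated groups and intervals away from 0.

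Pde1c, a calcium-regulated phosphodiesterase gene, stood at 886 and 871 CPM against 1888 and 1943 CPM in n02. In other neurons of the same mice it stood at 1401 and 771 CPM against 2057 and 2204 CPM, so it was lower in the FGF1 mice there too. Ly6h followed other neurons as well, with 114 and 63.1 CPM against 361 and 216 CPM in n02 and 90.7 and 67.5 CPM against 441 and 137 CPM in the others. The remaining genes were Cntn3 (-1.53) and Rmdn1 (-1.51), lower with FGF1, and Zfpm2 (1.67), Zfp804a (1.79), Rbms3 (1.51) and Hsp90ab1 (1.48), higher. Single mice moved such values. Hsp90ab1 was at 0.84 without FGF1 mouse 45 and 1.87 without FGF1 mouse 37, and Cntn3 at -2.08 and -1.23.

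The genes that define n02 were among those not called on either day. Tac1 differed by -0.90 on Day 1 (95% interval -2.44 to 0.63) and by -0.65 on Day 5, and FGF1 mouse 1 at 905 CPM lay within the vehicle range. After thinning each nucleus to 1000 UMIs, Tac1 was found on Day 1 in 46.9, 12.5 and 28.6% of the nuclei of FGF1 mice 1, 2 and 3 and in 33.3, 42.3 and 33.3% of those of vehicle mice 1, 2 and 3, against 62.5, 25.0 and 28.6% and 75, 65.4 and 66.7% before thinning. FGF1 mouse 1 lay above the vehicle mice and the other FGF1 mice below them after thinning. On Day 5 the thinned shares were 38.5 and 46.2% in FGF1 mice 37 and 45 and 44.4 and 66.7% in vehicle mice 28 and 38, the last from 3 nuclei. Gad2 differed by -0.50 and -0.62 and Gad1 by -0.21 and 0.70 on Day 1 and Day 5.

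In each of the gene lists the number of called genes was 0 on both days. The median difference over all genes tested was 0.02 on Day 1 and 0.01 on Day 5. For 28 genes of synaptic adhesion tested on Day 1 it was 0.11, and Epha6, an ephrin receptor, was the 1 gene of them with an unadjusted p below 0.05 (1.28), where 1.97% of all genes tested were below it. For 30 GABA and glutamate receptor genes it was -0.09 and for 14 potassium channel genes 0.15, with 0 below 0.05 in both. On Day 5 the medians were 0.29 for 27 synaptic adhesion genes, 0.09 for 23 receptor genes and 0.07 for 11 potassium channel genes. Of all genes tested on Day 5, 5.95% had an unadjusted p below 0.05, and in these lists they were Nlgn1 (0.65) and Ntm (0.86) of the adhesion genes, 0 of the receptor genes, and Kcnj3 (1.96) and Kcnq5 (1.11) of the channel genes. Among 5 peptide processing genes tested on Day 1 the median was -0.28, and Scg2, a granin of secretory granules, was at -1.54 with an unadjusted p below 0.05.

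The effect of FGF1 was not shown to differ between the days. The test of the Day 5 difference minus the Day 1 difference over all 10 mice called 0 of 1701 genes (percent called 0). By edgeR 54 genes (3.17%) had an unadjusted p below 0.05. DESeq2, without the filter on low counts, called 0 of 15834 genes, with 35 below 0.05 unadjusted. Zfp804a (2.75, 95% interval 1.04 to 4.47) and Rmst (2.07, 0.73 to 3.41) had the smallest p.

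The last comparison asked whether n02 and the other neurons of the same mice responded unequally on Day 1. It set the n02 sum of a mouse beside the sum of its other neuron nuclei, for the 4 mice above and with the mouse as a block. Those other nuclei were mostly unmapped and included unmapped nuclei whose projected label was n02. The fit took 1 estimate of the spread for n02 and the deeper sums of other neurons. Its common coefficient of variation was 0.087, against 0.316 in the fit of n02 alone over the same mice. The intervals and FDRs of this comparison may therefore understate the spread of 2 against 2 mice. Of 1723 genes, 13 (0.754%) were called at FDR below 0.05, 3 with a higher and 10 with a lower response in n02, and 116 (6.73%) had an unadjusted p below 0.05. The calls depended on single mice. Without FGF1 mouse 1, vehicle mouse 1 or vehicle mouse 2 there were 4, 8 and 9 called genes, of which 4, 5 and 6 were among the 13, and without FGF1 mouse 2 there was 1, Erbb4, and 0 of the 13. The study's batch column puts FGF1 mouse 2 and vehicle mouse 1 in the same batch and the other mice of this fit in a batch each, so batch and treatment are partly mixed in it. With all 6 mice 1 of 1723 genes was called (0.058%), Rmst, and 5.17% were below 0.05 unadjusted, and without the filter on low counts 0 were called, with little change in the values (Rmst -1.48, Hs3st5 -1.97, Snap25 -0.98). None of the 13 was called in n02 alone or in the other neurons alone.

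Rmst, a non-coding RNA gene of neuronal differentiation, stood at 249, 191 and 145 CPM in n02 of FGF1 mice 1, 2 and 3 and at 281, 585 and 703 CPM in vehicle mice 1, 2 and 3. In other neurons it stood at 905, 1059 and 997 CPM against 693, 678 and 783 CPM. In these mice its CPM was thus lower with FGF1 in n02 and higher in the other neurons, with no overlap in either. The responses differed by -1.55 (95% interval -2.20 to -0.91, FDR 0.0014) over 4 mice and by -1.73 (-2.42 to -1.04, FDR 0.0119) over 6. Like the other called genes, Rmst was picked for a small FDR in these mice, a choice that favours separated groups. Other neurons alone gave 0.56 over the 4 mice (95% interval -0.31 to 1.44), which was not called. On Day 5 n02 had 386 and 580 CPM with FGF1 against 343 and 144 CPM with vehicle. The Day 1 value fell short of the threshold without vehicle mouse 2 (-0.77, edgeR FDR 0.615) and without FGF1 mouse 2 (-1.30, edgeR FDR 0.352).

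Snap25 was lower with FGF1 in other neurons too, at 969, 876 and 789 CPM against 1186, 1269 and 976 CPM, and the response in n02 went further by -1.01 (-1.42 to -0.60, edgeR FDR 0.0014). Tac1 in other neurons stood at 231, 70.1 and 54.0 CPM against 54.8, 222 and 71.5 CPM, with the groups mixed, and the responses differed by -1.22 (-1.77 to -0.67, edgeR FDR 0.0054). Without FGF1 mouse 2 the values were -0.70 for Snap25 (FDR 0.807) and -1.10 for Tac1 (FDR 0.320), and without vehicle mouse 1 Tac1 was at -0.66 (FDR 0.717). Both stood further from 0 without FGF1 mouse 1, at -1.55 and -2.04, and Tac1 also without vehicle mouse 2, at -2.11. With all 6 mice the values were -0.89 for Snap25 (-1.40 to -0.39) and -1.25 for Tac1 (-1.89 to -0.60), with an FDR of 0.185 for both genes.

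Hs3st5, which encodes a heparan sulfate sulfotransferase, differed by -2.04. It stood at 109, 207 and 387 CPM in n02 of the FGF1 mice and 667, 157 and 201 CPM in the vehicle mice, and vehicle mouse 1 was the highest, followed by FGF1 mouse 3, which was not in the fit. Without vehicle mouse 1 the difference was -0.85, and without vehicle mouse 2 it was -2.87. Unc5c, a netrin receptor gene, differed by -1.13, Sorcs1, a sorting receptor gene, by -1.46, Asap1 by -1.82 and Camk2d, a calcium-dependent kinase gene, by -1.45. Sorcs1 was at -0.78 without vehicle mouse 2 and -2.31 without FGF1 mouse 1, and Unc5c at -0.51 with all 6 mice. Higher in response were Ldb2 (1.32), Srsf2 (1.61) and 4930555F03Rik (1.06), a non-coding RNA gene at 0.16 in n02 itself and at -0.98 in the other neurons. Ldb2 was at 0.73 without vehicle mouse 1 (FDR 0.914) and 2.68 without vehicle mouse 2, 4930555F03Rik at 0.62 with all 6 mice (FDR 0.959), and Srsf2 at 1.08 with all 6 mice. The Srsf2 locus is overlapped on the other strand by Mettl23 and Mfsd11, and the Agrp gene model by Gm5914 on its own strand.

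Agrp (-1.94) and Npy (-2.31) were also called, and for both the share of n02 nuclei with a UMI lay within the range of other types, as given above. In n02 Agrp stood at 159, 47.7 and 96.8 CPM in the FGF1 mice against 176, 418 and 33.5 CPM in the vehicle mice of Day 1. Npy had 0 UMIs in n02 of FGF1 mouse 2, so its fitted value without FGF1 mouse 1 depends on the prior count of the fit and is not given (FDR 0.256). Of the Agrp UMIs in n02 of vehicle mouse 2, 65% came from 1 nucleus with 26 Agrp, 9 Npy and 12 Tac1 UMIs, and of those of vehicle mouse 1, 90% from 1 nucleus with 9 Agrp, 8 Npy and 2 Tac1 UMIs. Without these 2 nuclei 8 genes were called, and Agrp was at -0.26 (FDR 0.986) and Npy at -1.14 (FDR 0.830). Tac1 (-1.22, FDR 0.176), Ldb2 (1.25, FDR 0.065) and Srsf2 (95% interval 0.65 to 2.35, FDR 0.080) were not called either, at values near those with the nuclei. The Agrp neurons made up 2.41, 1.65 and 1.84% of the other neurons in the FGF1 mice and 3.13, 2.27 and 1.81% in the vehicle mice. Whether these nuclei hold material of 2 cells was not tested.

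**Figure D5:**
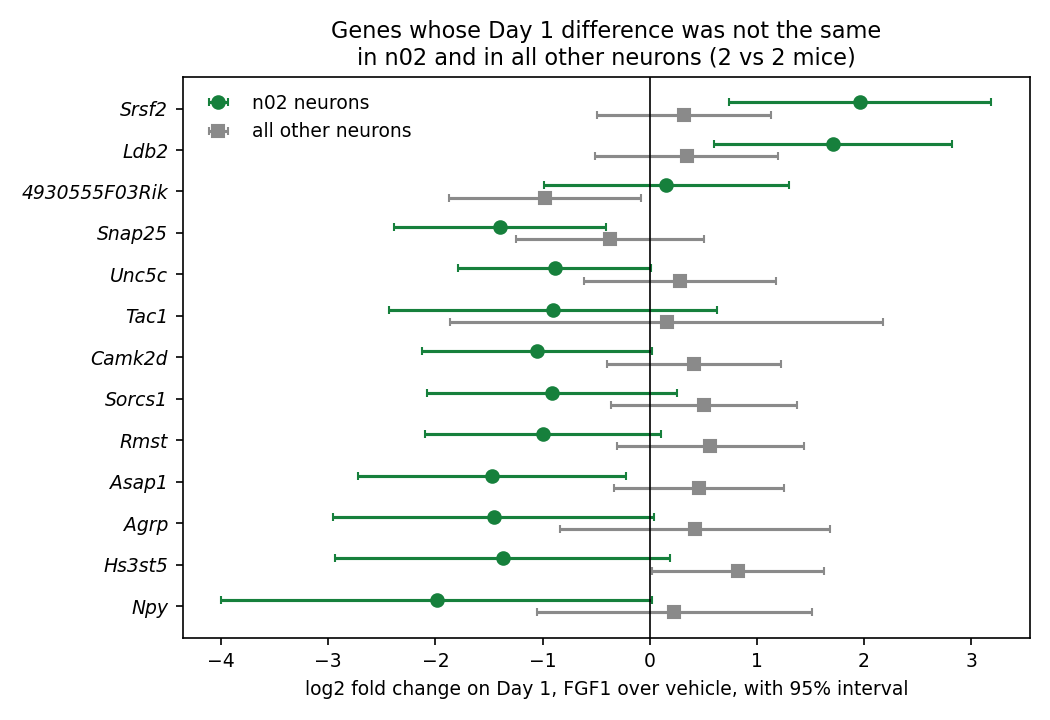
Log2 fold change of FGF1 over vehicle on Day 1 in n02 (green circles) and in all other neurons (grey squares) with 95% intervals, for the 13 genes whose responses differed at FDR below 0.05 over 2 against 2 mice. For Rmst the n02 value is -0.99 and that of the other neurons 0.56, and for Snap25 both lie below 0.

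Agrp neurons, another GABAergic type whose name also holds Gm8773, offered a closer comparison on Day 1. In the sums of the 6 mice 7 of 2350 genes were called in Agrp neurons, among them the potassium channel genes Kcnq3 (2.16, FDR 0.010) and Kcnq5 (2.20, FDR 0.041) and the protocadherin gene Pcdh15 (1.95, FDR 0.010). In the 4 mice that n02 shares with them 0 of 2775 were called, with values of 2.17 for Kcnq3 and 1.76 for Kcnq5 and a 95% interval of 0.97 to 2.63 for Pcdh15. In n02 of these 4 mice the values were 0.70 for Kcnq3, -0.37 for Kcnq5 and 0.52 for Pcdh15. The test of n02 against Agrp neurons called 1 gene, Agrp itself, and gave differences of -1.49 for Kcnq3 (FDR 0.208), -2.08 for Kcnq5 (FDR 0.116) and -1.29 for Pcdh15 (FDR 0.144), so a lower response of n02 for these 3 genes was not shown. Snap25 and Ldb2 stood at -1.07 and 1.18 in Agrp neurons of the 4 mice, on the side they had in n02, and n02 differed from Agrp neurons by -0.34 for Snap25 (-0.93 to 0.26, FDR 0.758) and by 0.58 for Ldb2 (-0.87 to 2.04, FDR 0.835). The differences of these 2 genes from all other neurons were thus not shown to be particular to n02. The genes of this paragraph were singled out after their values were seen.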

How the data were processed

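Nuclei of hypothalamic punches were sequenced by 10x 3′ single-nucleus RNA-seq, and per the study's methods the authors aligned reads, introns included, to GRCm38 (mm10) with Cell Ranger and deposited counts of UMIs per gene and nucleus together with the cell type of each nucleus. The authors also deposited the confidence of each projected cell type as a fraction. The authors omitted doublet calling for the nuclei, and none was run here. Their batch column puts 1 FGF1 and 1 vehicle mouse in each batch, but the 4 Day 1 mice with at least 10 n02 nuclei fall in 3 batches, 2 of them with 1 mouse. The count table held 20668 genes and was used as deposited. The n02 UMIs were summed per mouse and tested with edgeR 4.0.16 (filterByExpr, TMM, robust quasi-likelihood fit, Benjamini-Hochberg FDR 0.05), with at least 10 n02 nuclei per mouse on Day 1. On Day 5 and in the test between days the minimum was lowered to 1 nucleus, by the rule set for groups left with under 2 mice. The comparison with other neurons used 1 estimate of the spread for sums of very unequal depth. DESeq2 1.42.0, other normalizations and filters, thinning, blocks and leaving out mice were alternatives. Shares were compared by exact permutation. Scripts were tested on simulated data with known changes. Gene positions came from the GENCODE vM21 annotation. The members and gene lists were chosen with earlier results of these data known. Named genes were those called, the 5 of each direction with the smallest p where fewer than 10 were called, the 20 leading ratios and some listed genes. Not every listed gene in at least 5% of nuclei is named, and some named ones, such as Th and Slc17a6, were in fewer. Confidence bins, the Agrp neuron comparison and the 10 lowest ratios were added after values were seen. Per-mouse samples are separate animals.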

Additional observations from a re-analysis of the deposited data

Results flagged for a closer look

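The Day 1 response of n02 differed from that of the other neurons of the same mice for 13 genes by an interaction test (edgeR, FDR below 0.05, FGF1 mice 1 and 2 against vehicle mice 1 and 2). Values are n02 minus other neurons on the log2 scale, and the FDRs may understate the spread of 2 against 2 mice. Lower in n02 were Npy (-2.31), Hs3st5 (-2.04), Agrp (-1.94), Asap1 (-1.82), Rmst (-1.55), Sorcs1 (-1.46), Camk2d (-1.45), Tac1 (-1.22), Unc5c (-1.13) and Snap25 (-1.01). Higher were Srsf2 (1.61), Ldb2 (1.32) and 4930555F03Rik (1.06). Snap25 and Rmst were called in 5 of 9 alternative settings and Npy and Srsf2 in 1 of 9. With all 6 mice Rmst alone was called, and without FGF1 mouse 2 0 of the 13. Without the 2 nuclei with most Agrp UMIs, Agrp was at -0.26 (FDR 0.986) and Npy at -1.14 (FDR 0.830). Hs3st5 was at -0.85 without vehicle mouse 1 (FDR 0.929), Tac1 at -0.66 (FDR 0.717) and Ldb2 at 0.73 (FDR 0.914).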

How the results depend on the processing

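The counts of 0 called genes on Day 1, Day 5 and between the days stayed at 0 with DESeq2, DESeq2's size factors in edgeR, and no filter on low counts. They also stayed at 0 on each day with thinned nuclei, where far fewer genes could be tested. Thinned fits held 258 genes on Day 1 and 181 on Day 5, against 1723 and 975 in the main fits. Leaving out 1 mouse gave 0 to 2 genes on Day 1 (2 without FGF1 mouse 1, Snhg20 and Gm26917, both lower) and 0 to 2 on Day 5 (1 without FGF1 mouse 45, Tacc2, and 2 without vehicle mouse 38, Cox8a and Fth1, all lower), and 0 between days. The fits within a day, and those between days that leave out a Day 5 mouse, leave 1 group with 1 mouse, which is assumed to vary like the others, and these 5 genes were called in no other setting run. The 13 genes of the comparison with other neurons became 1 to 9 without 1 mouse (4 without FGF1 mouse 1, 8 without vehicle mouse 1, and 1, Erbb4, without FGF1 mouse 2), 0 without the filter, 1 with Agrp neurons as the comparison, 1 with all 6 mice and 8 without the 2 nuclei richest in Agrp, and the cause was not tested. Of 117 values of these genes under alternatives 78 lost the call, 38 kept it and 1 reversed, Tac1 at 0.66 against Agrp neurons. The difference in share on Day 1 was -0.423 (without vehicle mouse 3) to -0.127 (without vehicle mouse 2) percentage points without 1 mouse. On Day 5 it was -0.0859 to 0.0495, turning positive without vehicle mouse 28 (0.0108) or FGF1 mouse 45 (0.0495), and was 0.282 over mapped neurons. With the replicate block, Day 1 had 0 called genes (16 below 0.05 unadjusted) and the share difference of -0.256 a p of 0.5 by exact permutation. Over the 4 mice of Day 1 the correlation r of same-numbered mice was -0.277. With 2 mice per group crossed pairs must give the opposite value, so this r cannot show whether pairs deviated together. With all 6 mice r was -0.144, -0.188 and 0.044 for mice 1, 2 and 3. The crossed pairing also gave 0 called genes. The batch block could not be fitted to the 4 mice of Day 1, and with all 6 it gave 0, as it did on Day 5. Depth limits every value, since most lists were only partly tested in sums of 13896 to 100569 UMIs.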
